A study of Mus musculus with 24 samples.

Results

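Acta2, Myh11, Des, Lmod1, Myocd, Pdgfrb, Pdgfra, Tcf21 and Npnt mark the contractile and supporting cells of the lung, and their levels were followed in mice that express a TGF-β1 transgene. The 9 genes were taken by gene symbol from the probe annotation, out of 13499 genes measured. Each had 1 probe set on the array, and none lay below the lower quartile of its array in any of the 24 mice. Lung right lobes were profiled on whole-transcript arrays in 17 transgene carriers (TG) and 7 wild-type mice (WT) of 6 inbred strains, and doxycycline was given in the drinking water for 2 weeks to all of them, the WT mice too. The labels name the strains AJ, AKR, C57, S129, BC and C3H, written here A/J, AKR/J, C57BL/6J, 129, BALB/cJ and C3H. Each strain had 3 TG mice and 1 WT mouse, except C57BL/6J with 2 TG and 2 WT mice.

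In the series' design text the strains prone to fibrosis are AKR/J, A/J and C57BL/6J and the resistant ones are 129, BALB/cJ and C3H, and that division is used below. The samples also carry a numeric fibrosis code, and its stated meaning swaps prone and resistant, so by that code every prone minus resistant sign below turns. The labels also carry an emphysema code, which marks AKR/J and BALB/cJ as emphysematous, marks 129 and C3H as not, and is empty for A/J and C57BL/6J. Strain and these codes cannot be told apart. No source used here gives the promoter that drives the transgene or the age and sex of the mice. The values are log2 intensities. Array medians lay between 7.76 and 7.83, and the number of mice limits the precision. The labels do not say whether mice of a group were littermates, and the p-values rest on the spread between these mice, taken as independent. For differences within a strain, the single WT mouse of every strain but C57BL/6J adds nothing to that spread.

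Smooth muscle cells of airways and vessels hold a contractile apparatus of actin (Acta2), smooth muscle myosin heavy chain (Myh11), the intermediate filament desmin (Des) and leiomodin (Lmod1), which nucleates actin filaments. Myocardin (Myocd) switches these genes on by binding the factor SRF, which sits on a DNA element called the CArG box, and TEAD factors bind a further element of many contractile genes, the MCAT box. Pericytes and other mural cells carry the PDGF receptor β (Pdgfrb), and lung fibroblasts carry the PDGF receptor α (Pdgfra). The bHLH factor Tcf21 marks fibroblasts of the alveolar wall, and nephronectin (Npnt) is a matrix protein that binds the integrin whose α chain is Itga8. TGF-β is known to raise Acta2 in cultured fibroblasts as they turn into myofibroblasts, so Acta2 in whole lung can come from both muscle and activated fibroblasts. Heart muscle also expresses Des and Myocd.

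The stretch of 250 bases before the transcription start is shown for the 3 contractile genes that the RefSeq promoter table holds. It is shown also for Tcf21, the fibroblast gene with the largest change. SRF, with myocardin, acts on contractile genes through the CArG box, and the search below asked whether that element lies there. Sequences are from RefSeq on GRCm38.p6, 5′ to 3′ on the strand of the gene, and capitals mark CArG boxes and MCAT boxes. The Acta2 stretch lies at chr19:34255374-34255623 on the minus strand, Lmod1 at chr1:135324563-135324812 and Des at chr1:75360042-75360291 on the plus strand, and Tcf21 at chr10:22820144-22820393 on the minus strand.
Acta2: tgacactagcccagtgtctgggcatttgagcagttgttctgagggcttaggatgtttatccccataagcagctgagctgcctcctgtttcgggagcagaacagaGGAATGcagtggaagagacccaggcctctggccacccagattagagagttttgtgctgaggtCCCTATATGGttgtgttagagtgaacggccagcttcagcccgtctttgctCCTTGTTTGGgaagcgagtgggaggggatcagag
Lmod1: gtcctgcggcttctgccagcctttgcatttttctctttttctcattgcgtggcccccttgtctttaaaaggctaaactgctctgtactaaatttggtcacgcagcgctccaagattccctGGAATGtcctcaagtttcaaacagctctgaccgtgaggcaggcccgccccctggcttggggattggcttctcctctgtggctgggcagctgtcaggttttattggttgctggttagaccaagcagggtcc
Des: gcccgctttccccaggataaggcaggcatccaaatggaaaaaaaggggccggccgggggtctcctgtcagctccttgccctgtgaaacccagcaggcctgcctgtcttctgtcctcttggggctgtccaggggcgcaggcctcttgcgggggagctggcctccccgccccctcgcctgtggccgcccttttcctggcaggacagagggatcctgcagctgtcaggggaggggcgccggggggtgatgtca
Tcf21: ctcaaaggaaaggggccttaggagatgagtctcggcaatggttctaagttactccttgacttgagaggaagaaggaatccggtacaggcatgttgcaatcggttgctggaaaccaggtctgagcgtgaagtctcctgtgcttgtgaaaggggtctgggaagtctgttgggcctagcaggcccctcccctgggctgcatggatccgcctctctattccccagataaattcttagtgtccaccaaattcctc

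Windows of 300 bases, 250 before the start and 50 after it, were searched for the CArG box with at most 1 G or C among its 6 inner bases, which reads alike on both strands, and for the MCAT box CATTCC on both strands. The searches found no overlapping matches. The window of Acta2 held 2 CArG boxes, CCCTATATGG at -84 to -75 and CCTTGTTTGG at -34 to -25 from the start, each with 1 inner G or C. It also held an MCAT box, read as GGAATG, at -146 to -141. The Lmod1 window held 1 MCAT box at -130 to -125, and the windows of Des, Tcf21, Pdgfra and Npnt held neither sequence. Of all 32851 windows in the table, 9.98% held a CArG box under this rule, 1.63% one with only A and T inside, and 14.7% an MCAT box. Myh11, Myocd and Pdgfrb are named only.

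**Figure D1:**
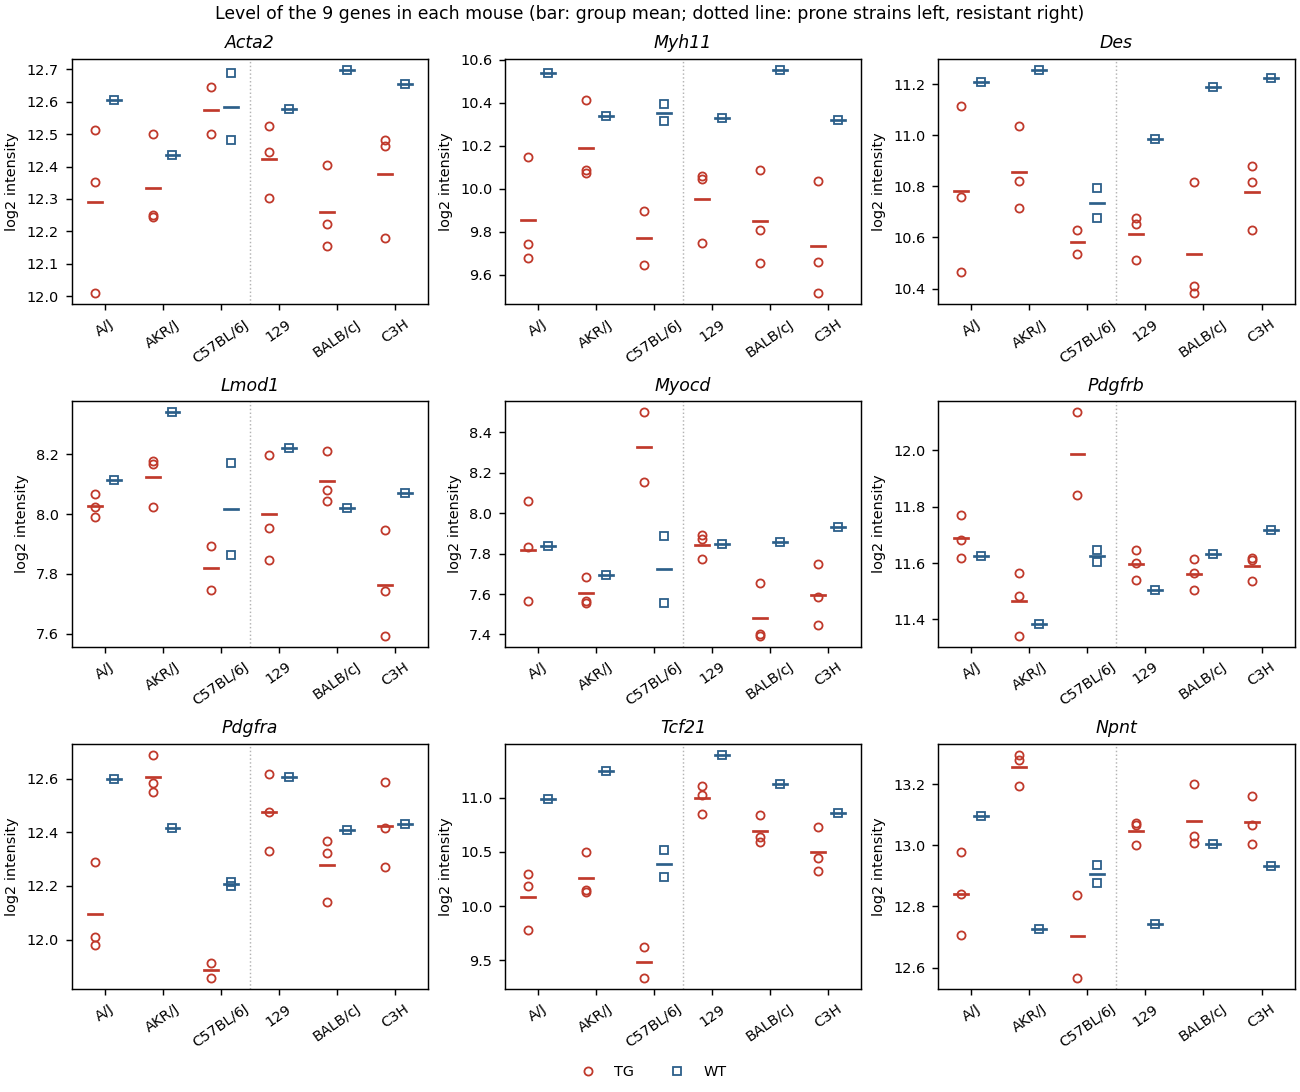
Level of each of the 9 genes in every mouse, in log2 intensity, by strain (prone strains left of the dotted line, resistant right), with TG mice as circles, WT mice as squares and a bar at each group mean. For Tcf21 and Des every TG mouse lies below the WT mean of its strain, and for Myocd and Pdgfrb the 2 TG mice of C57BL/6J lie above all other mice.

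The first question was which of these genes differ between TG and WT lungs over the 6 strains. The contractile genes were lower in TG lungs, and so was Tcf21, which fell most. Of the 9 genes, 5 were called lower and none higher by limma with strain as a term (Benjamini-Hochberg adjusted p under 0.05 over all genes; 6 had an unadjusted p under 0.05). Over all genes 13.5% were called lower and 13.2% higher. No share of all genes at an unadjusted p under 0.05 was counted, so unadjusted counts here and below have no such share beside them. The called genes were Acta2, Myh11, Des, Lmod1 and Tcf21. In whole lung, fewer cells of a type and less RNA per cell cannot be told apart.

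Myh11, the motor protein of smooth muscle, ran from 9.51 to 10.41 with a median of 9.90 in the 17 TG mice, against 10.31 to 10.55 with a median of 10.34 in the 7 WT mice. Of the TG mice, 16 lay below every WT mouse, and the exception was an AKR/J mouse. The TG minus WT difference was -0.52 ± 0.09 (SE, log2), or 1.43-fold lower, with a limma adjusted p of 0.00011. By strain, Myh11 was 9.74, 9.68 and 10.15 in A/J TG mice, against 10.54 in the A/J WT mouse. In C57BL/6J it was 9.64 and 9.90 in TG mice, against 10.39 and 10.31 in WT mice. The difference within the strain was called in these 2 strains, at -0.68 ± 0.22 in A/J (adjusted p = 0.043) and -0.58 ± 0.19 in C57BL/6J (adjusted p = 0.046). Both calls sat at the threshold. The A/J call was lost without any 1 of 7 mice (adjusted p 0.050 to 0.10), namely A/J TG mice 1 and 2, both C57BL/6J WT mice, 129 TG mouse 3, BALB/cJ TG mouse 2 and C3H TG mouse 2. The C57BL/6J call was lost without any 1 of 11 mice (adjusted p 0.050 to 0.28), namely its own 4 mice, 129 TG mice 1 and 3, A/J TG mouse 1, AKR/J TG mice 1 and 2, BALB/cJ TG mouse 2 and C3H TG mouse 2.

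BALB/cJ and C3H showed Myh11 differences of like size that were not called within the strain. The gene was 9.65, 9.81 and 10.09 in BALB/cJ TG mice, against 10.55 in the BALB/cJ WT mouse. It was 9.51, 9.66 and 10.03 in C3H TG mice, against 10.32 in the C3H WT mouse. Those differences were -0.70 ± 0.22 (adjusted p = 0.11) and -0.59 ± 0.22 (adjusted p = 0.35). AKR/J had the smallest, with 10.07, 10.09 and 10.41 in TG mice, against 10.34 in the WT mouse. In 129 the TG mice had 10.06, 9.75 and 10.05, against 10.33 in the WT mouse.

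Desmin was lower in every TG mouse than in the WT mice of its own strain, 17 of 17. It ran from 10.38 to 11.12 with a median of 10.68 in TG mice, against 10.68 to 11.25 with a median of 11.19 in WT mice. The ranges overlapped, and the C57BL/6J WT mice, at 10.80 and 10.68, had the lowest WT levels. The difference was -0.39 ± 0.08 (1.31-fold lower, limma adjusted p = 0.00056). Strain differences ran from -0.65 in BALB/cJ to -0.15 in C57BL/6J and none was called within a single strain. BALB/cJ TG mice had 10.38, 10.41 and 10.82, against 11.19 in the WT mouse, and C57BL/6J TG mice had 10.54 and 10.63, against the WT levels just given.

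Heart muscle genes were also lower in TG lungs over the 6 strains. Of 11 measured heart muscle genes, 9 fell, among them atrial myosin light chain Myl7 (-0.92 ± 0.15, limma adjusted p = 8.4e-05), the myosin heavy chain Myh6 (-0.91 ± 0.13, adjusted p = 1.9e-05), cardiac actin Actc1 (-0.87 ± 0.14, adjusted p = 7.0e-05) and cardiac troponin Tnnt2 (-0.75 ± 0.11, adjusted p = 2.3e-05). The median of the 11 was -0.72, against -6e-04 for all genes. Their mean level was 8.76 to 10.04 in TG mice, against 9.66 to 10.21 in WT mice, and was lower in 17 of 17 TG mice than in the WT mice of their strain. By strain that mean differed by -1.15 in A/J, -0.26 in AKR/J, -0.91 in C57BL/6J, -0.42 in 129, -0.74 in BALB/cJ and -0.57 in C3H. Des differed by -0.43, -0.40, -0.15, -0.37, -0.65 and -0.45 in the same order, so the strains did not rank alike. The 6 skeletal muscle genes had a mean level of 6.25 to 6.53 in TG mice, against 6.24 to 6.44 in WT mice, near the lower quartile of the arrays at 6.24 to 6.35. The part of cardiac muscle RNA in the Des difference was not tested.

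Acta2, the smooth muscle actin, was lower by a small step. It ran from 12.01 to 12.65 with a median of 12.40 in TG mice, against 12.44 to 12.70 with a median of 12.60 in WT mice, and 14 of 17 TG mice lay below every WT mouse of their strain. The difference was -0.20 ± 0.07 (1.15-fold lower, limma adjusted p = 0.029). A/J TG mice had 12.35, 12.01 and 12.51, against 12.60 in the WT mouse, and BALB/cJ TG mice had 12.15, 12.22 and 12.40, against 12.70 in the WT mouse. In C57BL/6J the groups overlapped, with 12.65 and 12.50 in TG mice, against 12.69 and 12.48 in WT mice. The Acta2 call was lost without the single WT mouse of A/J (-0.18, adjusted p = 0.086), BALB/cJ (-0.16, adjusted p = 0.11) or C3H (-0.19, adjusted p = 0.069). It was also lost with mice of 1 strain and number as a block (-0.23, adjusted p = 0.061) and with every probe set tested (adjusted p = 0.052).

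Lmod1 ran from 7.59 to 8.21 with a median of 8.02 in TG mice, against 7.86 to 8.34 with a median of 8.11 in WT mice. The groups overlapped, and 13 of 17 TG mice lay below every WT mouse of their strain. BALB/cJ went the other way, with 8.04, 8.21 and 8.08 in TG mice, against 8.02 in the WT mouse. C3H TG mice had 7.74, 7.59 and 7.95, against 8.07 in the WT mouse. The difference over strains was -0.16 ± 0.06 (limma adjusted p = 0.045), at the threshold. It lost the call without any 1 of 17 mice (adjusted p 0.051 to 0.14), and kept it only without 129 TG mouse 1, A/J TG mouse 1, AKR/J TG mouse 1, BALB/cJ TG mouse 2, C3H TG mouse 3, the BALB/cJ WT mouse or C57BL/6J WT mouse 2.

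Myocardin, the regulator of the contractile genes, ran from 7.39 to 8.50 with a median of 7.69 in TG mice, against 7.56 to 7.93 with a median of 7.85 in WT mice. The difference over strains was -0.00 ± 0.10 (limma adjusted p = 0.99), with a 95% interval of -0.20 to 0.20. In C57BL/6J, Myocd was 8.50 and 8.16 in TG mice, against 7.89 and 7.56 in WT mice. Both C57BL/6J TG mice lay above all other 22 mice, and the difference was 0.60 ± 0.15 (adjusted p = 0.014). That call was lost without C57BL/6J TG mouse 1 (0.43, adjusted p = 0.17) or C57BL/6J WT mouse 2 (0.44, adjusted p = 0.17).

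In the other 5 strains Myocd differences were below 0 and not called. In BALB/cJ it was 7.40, 7.39 and 7.66 in TG mice, against 7.86 in the WT mouse (-0.38 ± 0.18, limma adjusted p = 0.34). In C3H it was 7.45, 7.58 and 7.75 in TG mice, against 7.93 in the WT mouse (-0.34 ± 0.18, adjusted p = 0.60). A/J, AKR/J and 129 differed by between -0.09 and -0.00. C57BL/6J was therefore the single strain in which Myocd was higher while Myh11 was lower.

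Pdgfrb, the receptor of mural cells, ran from 11.34 to 12.13 with a median of 11.61 in TG mice, against 11.39 to 11.72 with a median of 11.62 in WT mice. The difference over strains was 0.08 ± 0.05 (limma adjusted p = 0.27; 95% interval -0.03 to 0.19). C57BL/6J again stood apart, with 12.13 and 11.84 in TG mice, against 11.60 and 11.65 in WT mice. Both lay above all other mice, and the difference was 0.36 ± 0.09 (adjusted p = 0.014). The call was lost without C57BL/6J TG mouse 1 (0.22, adjusted p = 0.21) or without C57BL/6J WT mouse 1 (0.34, adjusted p = 0.079) or 2 (0.38, adjusted p = 0.060). Of 4 PDGF ligand genes listed, 2 were measured and both rose, Pdgfc by 0.41 ± 0.10 (adjusted p = 0.0028) and Pdgfb by 0.24 ± 0.05 (adjusted p = 0.0015) over strains.

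Tcf21 was lower in 17 of 17 TG mice than in the WT mice of their strain. It ran from 9.34 to 11.10 with a median of 10.44 in TG mice, against 10.27 to 11.40 with a median of 10.99 in WT mice. The overall ranges overlapped because strains differed in level. The difference was -0.68 ± 0.09 (1.60-fold lower, limma adjusted p = 9.8e-06).

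Within strains, Tcf21 was called in all 3 prone strains. In A/J it was 10.29, 10.18 and 9.78 in TG mice, against 10.99 in the WT mouse (-0.91 ± 0.20, limma adjusted p = 0.0056). In AKR/J it was 10.15, 10.13 and 10.50 in TG mice, against 11.25 in the WT mouse (-0.99 ± 0.20, adjusted p = 0.015). In C57BL/6J it was 9.34 and 9.62 in TG mice, against 10.51 and 10.27 in WT mice (-0.91 ± 0.17, adjusted p = 0.0021). The TG mice of each prone strain thus lay well below their WT mice, by close to 1 log2 unit.

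The resistant strains moved the same way by less. In 129, Tcf21 was 11.10, 11.03 and 10.85 in TG mice, against 11.40 in the WT mouse. In BALB/cJ it was 10.59, 10.64 and 10.84 in TG mice, against 11.13 in the WT mouse, and in C3H it was 10.73, 10.32 and 10.44 in TG mice, against 10.86 in the WT mouse. The differences of -0.40, -0.44 and -0.36 were not called within these strains (adjusted p 0.32 to 0.64).

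Pdgfra was lower in TG mice in 5 of 6 strains and higher in AKR/J. It ran from 11.86 to 12.69 with a median of 12.33 in TG mice, against 12.20 to 12.61 with a median of 12.41 in WT mice, and the difference over strains was -0.16 ± 0.07 (limma adjusted p = 0.090; 95% interval -0.30 to -0.02). Without the AKR/J WT mouse it was called (-0.23, adjusted p = 0.015). A/J TG mice had 12.01, 11.98 and 12.29, against 12.60 in the WT mouse. That difference of -0.51 ± 0.14 was called (adjusted p = 0.019), and was lost without A/J TG mouse 1 (-0.46, adjusted p = 0.053). C57BL/6J TG mice had 11.86 and 11.91, against 12.21 and 12.20 in WT mice (-0.32 ± 0.12, adjusted p = 0.086). AKR/J TG mice had 12.58, 12.55 and 12.69, all above the WT mouse at 12.41, although the difference of 0.19 ± 0.14 was not called (adjusted p = 0.62). In 129, BALB/cJ and C3H the differences were -0.13, -0.13 and -0.01, and none was called. A variation of the effect among strains was not called either (limma F test, adjusted p = 0.29).

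Npnt had opposite signs between strains. It ran from 12.57 to 13.30 with a median of 13.03 in TG mice, against 12.73 to 13.10 with a median of 12.93 in WT mice, and the difference over strains was 0.08 ± 0.07 (limma adjusted p = 0.44; 95% interval -0.07 to 0.23). AKR/J TG mice had 13.30, 13.19 and 13.28, against 12.73 in the WT mouse. The 3 TG values lay above the WT mouse by a difference of 0.53 ± 0.11 (adjusted p = 0.022), a call that was lost without AKR/J TG mouse 1 (0.51, adjusted p = 0.060). A/J TG mice had 12.71, 12.98 and 12.84, against 13.10 in the WT mouse, and C57BL/6J TG mice had 12.57 and 12.84, against 12.88 and 12.93 in WT mice. Those differences were -0.25 ± 0.11 (adjusted p = 0.16) and -0.20 ± 0.10 (adjusted p = 0.21). Itga8, the α chain of the nephronectin receptor, fell by 0.47 ± 0.07 over strains (adjusted p = 6.8e-05), and was picked out after its value was seen.

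**Figure D2:**
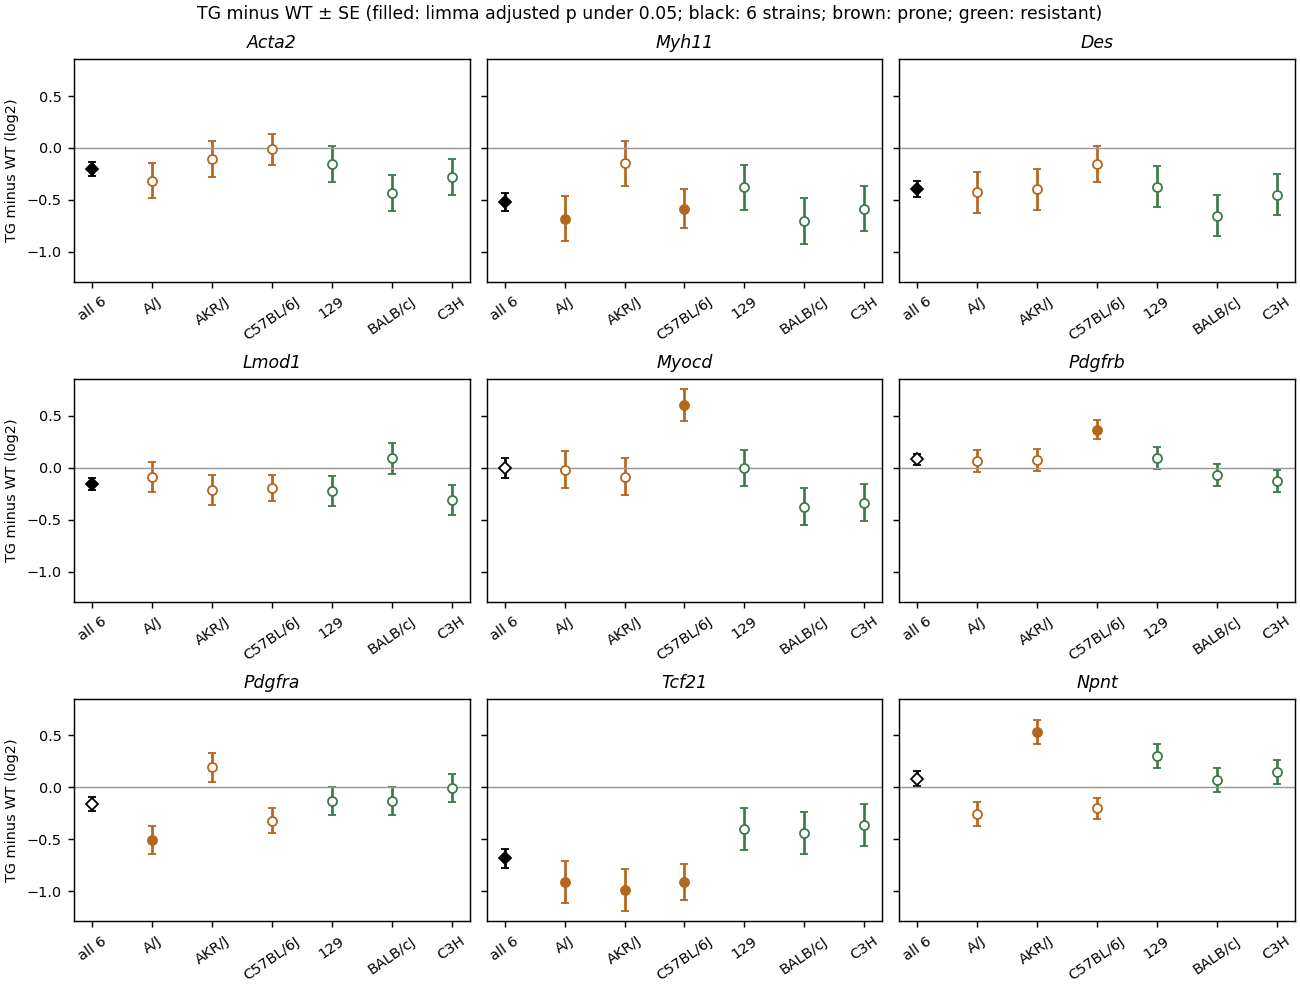
TG minus WT difference of each gene over 6 strains (black) and in each strain (brown prone, green resistant), in log2 units, with bars for the SE and filled marks where the limma adjusted p was under 0.05. Acta2, Myh11, Des and Tcf21 are below 0 in all 6 strains, while Myocd and Pdgfrb are highest in C57BL/6J and Npnt is highest in AKR/J.

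Counted by strain, limma called 4 of the 9 genes in C57BL/6J, 3 in A/J and 2 in AKR/J. Over all genes, 14.3% were called in C57BL/6J, 14.9% in A/J and 2.11% in AKR/J. In 129, BALB/cJ and C3H none of the 9 was called, and 1, 5 and 3 had an unadjusted p under 0.05. Over all genes 2.95% were called in 129, 2.26% in BALB/cJ and 0.822% in C3H. Those shares are at the adjusted threshold and cannot be set against the unadjusted counts. Acta2, Myh11, Des and Tcf21 were lower in TG lungs in all 6 strains, as were 10.3% of all genes.

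The second question was whether the transgene's effect differed between prone and resistant strains. Tcf21 differed most. Its TG minus WT difference was -0.93 ± 0.11 in the prone strains (limma adjusted p = 1.4e-05) and -0.40 ± 0.12 in the resistant strains (adjusted p = 0.035). The resistant call was lost without any 1 of 8 mice of those strains, all but 129 TG mice 1 and 2, BALB/cJ TG mouse 3 and C3H TG mouse 1 (adjusted p 0.053 to 0.14). The difference between the 2 sets was -0.53 ± 0.16, which did not pass over all genes (unadjusted p = 0.0042, adjusted p = 0.15). Myocd had a difference between sets of 0.40 ± 0.14 (adjusted p = 0.24) and Pdgfrb one of 0.20 ± 0.08 (adjusted p = 0.36). None of the 9 genes was called by limma, against 0.474% of all genes, and 3 had an unadjusted p under 0.05.

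No contractile gene was called for a difference between the sets. Acta2 was -0.14 ± 0.10 in prone strains (limma adjusted p = 0.34) and -0.29 ± 0.10 in resistant strains (adjusted p = 0.075), and Lmod1 was -0.17 ± 0.08 in prone strains (adjusted p = 0.16) and -0.15 ± 0.08 in resistant strains (adjusted p = 0.31). The 95% interval of the difference was -0.14 to 0.44 for Acta2 and -0.27 to 0.23 for Lmod1. Myh11 was -0.47 ± 0.12 in prone strains (limma adjusted p = 0.0082) and -0.55 ± 0.13 in resistant strains (adjusted p = 0.0080), with a 95% interval for the difference of -0.28 to 0.45. Des was -0.33 ± 0.11 in prone strains (adjusted p = 0.040) and -0.49 ± 0.11 in resistant strains (adjusted p = 0.010), with an interval of -0.17 to 0.50. These intervals leave room for a difference of about the size of the effects themselves. Over the sets, 4 of the 9 genes were called in prone strains, the fourth being Pdgfrb at 0.17 ± 0.06 (adjusted p = 0.046), and 3 in resistant strains, against 23.5% and 10.7% of all genes. Without the BALB/cJ WT mouse, Myh11 (-0.48, adjusted p = 0.078) and Des (-0.41, adjusted p = 0.11) lost their calls in resistant strains, and without the A/J WT mouse Myh11 lost its call in prone strains (-0.36, adjusted p = 0.11). The prone call of Des was lost without any 1 of 10 mice (adjusted p 0.052 to 0.20), namely the WT mice of the 3 prone strains, A/J TG mice 1 and 2, AKR/J TG mice 1 and 2 and both C57BL/6J TG mice. That of Pdgfrb was lost without any 1 of 15 mice (adjusted p 0.051 to 0.14), and kept only without 129 TG mouse 1, A/J TG mouse 1, AKR/J TG mouse 2, C57BL/6J TG mouse 2 or a WT mouse of a strain other than C57BL/6J.

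Without assuming the 2 sets, an F test of whether the transgene's effect varied among the 6 strains called none of the 9 genes by limma, against 1.34% of all genes. Npnt came closest (adjusted p = 0.058), followed by Myocd (adjusted p = 0.14), and 4 of the 9, namely Myocd, Pdgfrb, Pdgfra and Npnt, had an unadjusted p under 0.05. Npnt passed without any 1 of A/J TG mouse 2, BALB/cJ TG mouse 3, C57BL/6J TG mouse 2 or the WT mice of BALB/cJ and C3H (adjusted p 0.034 to 0.046). The 3 contractile genes with the largest changes had adjusted p-values of 0.77 to 0.84.

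Levels in TG mice were then compared among strains. They differed for 6 of the 9 genes (limma F test, 31.4% of all genes called). These were Tcf21 (adjusted p = 4.4e-05), Pdgfra (0.00065), Npnt (0.0018), Myocd (0.0027), Pdgfrb (0.0028) and Lmod1 (0.048). Lmod1 lost the call without any 1 of 13 TG mice, with an adjusted p of 0.054 to 0.13, all but 129 TG mice 1 and 3, AKR/J TG mouse 2 and C3H TG mouse 3. Acta2, Myh11 and Des were not called (adjusted p 0.19 to 0.40).

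The order of strains in TG mice was C57BL/6J lowest for Tcf21, with a mean of 9.48, then A/J at 10.08, AKR/J at 10.26, C3H at 10.50, BALB/cJ at 10.69 and 129 at 10.99. The range of C57BL/6J lay apart from that of A/J, and the range of 129 from that of BALB/cJ, while the strains between them overlapped their neighbours. Of the 8 prone TG mice, 7 lay below all 9 resistant TG mice. For Pdgfra the order began with C57BL/6J at 11.89 and A/J at 12.09 and ended with AKR/J at 12.61, and only C57BL/6J was clear of its neighbour. For Npnt, C57BL/6J at 12.70 and A/J at 12.84 were clear of the other strains, and AKR/J was highest at 13.26 though its range met that of BALB/cJ. A/J and C57BL/6J thus had the lowest TG levels of all 3 fibroblast genes. In WT mice C57BL/6J was also lowest for Tcf21 (10.39) and Pdgfra (12.21), and 129 was highest for both (11.40 and 12.61). The A/J WT mouse was not lowest for any of the 3, at 10.99 for Tcf21, 12.60 for Pdgfra and 13.10 for Npnt. For Npnt the lowest WT level was that of AKR/J, at 12.73.

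Between sets, the TG level of prone minus resistant strains was -0.79 ± 0.09 for Tcf21 (limma adjusted p = 2.9e-05), 0.28 ± 0.08 for Myocd (adjusted p = 0.025) and -0.20 ± 0.06 for Pdgfra (adjusted p = 0.038). These 3 of the 9 genes were called, against 11.1% of all genes. With the strain means as the unit, 3 against 3, the exact permutation p was 0.1 for Tcf21, the smallest that design allows, and 0.4 for Myocd and for Pdgfra (two-sided). Pdgfra lost its limma call without any 1 of 12 TG mice, all but 129 TG mouse 3, A/J TG mouse 3, AKR/J TG mouse 3, BALB/cJ TG mouse 2 and C3H TG mouse 1 (adjusted p 0.054 to 0.11). Myocd lost it without C57BL/6J TG mouse 1 (0.22, adjusted p = 0.12), 129 TG mouse 2, BALB/cJ TG mouse 2 or C3H TG mouse 1 (adjusted p from 0.051). Among WT mice none of the 9 genes was called between prone and resistant strains by limma, against 0.741% of all genes. None had an unadjusted p under 0.05. Tcf21 differed by -0.25 ± 0.14 in WT mice (adjusted p = 0.56), with 10.27 to 11.25 in the 4 prone WT mice and 10.86 to 11.40 in the 3 resistant ones.

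To set the contractile genes against the fibroblast genes, the log2 levels of Acta2, Myh11, Des and Lmod1 were averaged in each mouse, as were those of Pdgfra, Tcf21 and Npnt. The contractile mean was lower in 17 of 17 TG mice than in the WT mice of their strain. By strain its TG minus WT difference was -0.38 in A/J, -0.22 in AKR/J, -0.24 in C57BL/6J, -0.28 in 129, -0.43 in BALB/cJ and -0.41 in C3H. The fibroblast mean differed by -0.55 in A/J and -0.48 in C57BL/6J, but by -0.09 in AKR/J, -0.08 in 129, -0.17 in BALB/cJ and -0.07 in C3H. The fibroblast mean was thus further below the WT level than the contractile mean in A/J and C57BL/6J, and less far below it in the other 4 strains. In those 4 strains it joined opposite changes, a lower Tcf21 and a higher Npnt. These were -0.99 and 0.53 in AKR/J, -0.40 and 0.31 in 129, -0.44 and 0.07 in BALB/cJ and -0.36 and 0.15 in C3H.

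The contractile minus fibroblast gap, TG minus WT, was 0.18 in A/J and 0.24 in C57BL/6J, and lay between -0.33 and -0.13 in the other strains. Its mean over strains was -0.08, which joins gaps of opposite sign. The SD between mice of a group was 0.13, a spread of single mice and not the error of that mean, and these means carry no test. With the median of the genes in place of the mean, the gap over strains was -0.31.

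**Figure D3:**
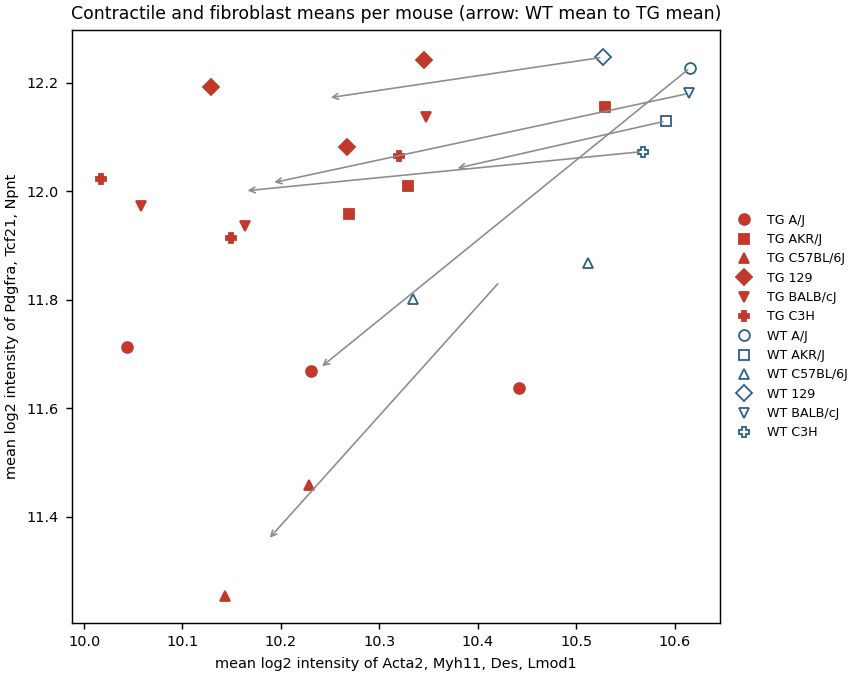
Contractile mean (Acta2, Myh11, Des, Lmod1) against fibroblast mean (Pdgfra, Tcf21, Npnt) in each mouse, both in log2 intensity, with filled red marks for TG mice, open blue marks for WT mice, a shape per strain and an arrow from each strain's WT mean to its TG mean. TG mice reach from 10.02 to 10.53 on the contractile mean, against 10.33 to 10.62 in WT mice, and the lowest fibroblast mean is 11.25 in TG mice, against 11.80 in WT mice.

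Other genes of the same cells, taken from marker lists, did not all follow. For all the list counts, the share over all genes is 13.5% called lower and 13.2% called higher. Of 26 other contractile genes listed, 17 were measured, and Tagln, Cnn1 and Actg2 are among those that were not. Of the 17, 8 fell and 5 rose, with a median of -0.12. Those that fell most were Pgm5 (-0.62 ± 0.09, limma adjusted p = 2.9e-05), a protein of muscle adhesion sites, Casq2 (-0.60 ± 0.12), a calcium store protein found also in heart, Pcp4l1 (-0.58 ± 0.10) and Synpo2 (-0.52 ± 0.06), an actin bundler. Those that rose were Ckb, Actn1, Pdlim7, Lpp and Csrp1, at 0.12 to 0.42. Which cells gave these rises was not tested. Of 14 regulators of smooth muscle, Myocd among them, 4 fell and 2 rose. Hey1 fell by 0.46 ± 0.06 while its relative Heyl rose by 0.36 ± 0.07, Klf4 fell by 0.20 ± 0.06, and Notch3, the receptor that drives both in mural cells, fell by 0.17 ± 0.04. Srf itself differed by 0.02 ± 0.04 (adjusted p = 0.73). The Klf4 call was lost without the WT mouse of A/J (-0.16, adjusted p = 0.097) or C3H (-0.18, adjusted p = 0.062) or C57BL/6J WT mouse 1 (-0.17, adjusted p = 0.055). The count of 4 was 2 without the A/J WT mouse or C57BL/6J WT mouse 1, and that of 2 was 1 without the A/J WT mouse or C57BL/6J TG mouse 1.

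Of 13 pericyte genes, 3 rose and 4 fell, with a median of -0.07. Rgs5, a pericyte regulator of G protein signals, rose by 0.66 ± 0.18 (limma adjusted p = 0.0072), while Vtn fell by 0.56 ± 0.09 and Ebf1 by 0.43 ± 0.05. Lamc3, a laminin chain, rose by 0.40 ± 0.09. Prone and resistant strains gave 0.90 and 0.26 for Rgs5, -0.61 and -0.49 for Vtn, -0.38 and -0.48 for Ebf1 and 0.43 and 0.34 for Lamc3. Of 21 other genes of alveolar and lipid-storing fibroblasts, 7 fell and 3 rose, with a median of -0.12. The largest falls were in Lrat (-0.93 ± 0.20, adjusted p = 0.0014), which stores vitamin A, Cdo1 (-0.83 ± 0.10), an enzyme of cysteine breakdown, and Fgfr4 (-0.61 ± 0.12), a growth factor receptor. Cxcl14, a chemokine, rose by 0.72 ± 0.15. By set, prone then resistant, Lrat was -1.58 and -0.19, Cdo1 -1.06 and -0.52, Fgfr4 -0.86 and -0.31 and Cxcl14 0.73 and 0.74.

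Genes of activated fibroblasts and myofibroblasts went the other way from Acta2. Of 16 measured, 11 rose and 5 did not pass, with a median of 0.40. Ltbp2 rose by 1.54 ± 0.16 and Tnc by 1.49 ± 0.13, both matrix proteins, the collagen cross-linking enzyme Lox by 1.23 ± 0.13 and the collagen chain Col1a1 by 1.02 ± 0.08 (limma adjusted p at most 3.1e-07). Their mean was higher in 17 of 17 TG mice than in the WT mice of their strain, at 9.73 to 10.45 in TG mice and 9.34 to 9.59 in WT mice. Of 16 adventitial fibroblast genes, 7 rose and 5 fell, among them Il33 (0.62 ± 0.12), Fbln1 (0.49 ± 0.09), Lum (0.45 ± 0.10) and Adh7 (-0.53 ± 0.06), and without the C3H WT mouse 2 fell. Itga8 stands in both the contractile and the alveolar fibroblast list and is counted among the falls of each. Postn stands in both the pericyte and the myofibroblast list, and Notch3 in both the pericyte and the regulator list.

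Markers of other lung cells also moved. Of 9 vessel endothelial genes, 7 fell, led by Tek (-0.60 ± 0.06), Ramp2 (-0.49 ± 0.05), Eng (-0.46 ± 0.05) and Tie1 (-0.29 ± 0.05), and their mean was 11.22 to 11.74 in TG mice, against 11.65 to 11.86 in WT mice. All 3 measured fat cell genes fell, namely Fabp4 (-1.02 ± 0.17), Adipoq (-0.69 ± 0.20) and Plin4 (-0.47 ± 0.10). Of 9 alveolar type 1 cell genes 1 fell, Vegfa (-0.13 ± 0.04), of 6 mesothelial genes 1 rose and 1 fell, and of 6 skeletal muscle genes 1 rose, Neb (0.17 ± 0.05). The alveolar type 1 count rested on single mice. It was 0 without the 129 WT mouse (Vegfa -0.13, adjusted p = 0.056), the A/J WT mouse (-0.09, adjusted p = 0.13) or C57BL/6J TG mouse 2 (-0.12, adjusted p = 0.051), 4 without the AKR/J WT mouse, and 2 without AKR/J TG mouse 1, BALB/cJ TG mouse 3 or the BALB/cJ WT mouse. Without the A/J WT mouse 1 gene of that list was called higher. The mesothelial rise was lost without the 129 WT mouse and the fall without the A/J WT mouse, and Adipoq lost its call without the C3H WT mouse (-0.52, adjusted p = 0.065). The part of endothelial and fat cell RNA in the values of the 9 genes was not tested.

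**Figure D4:**
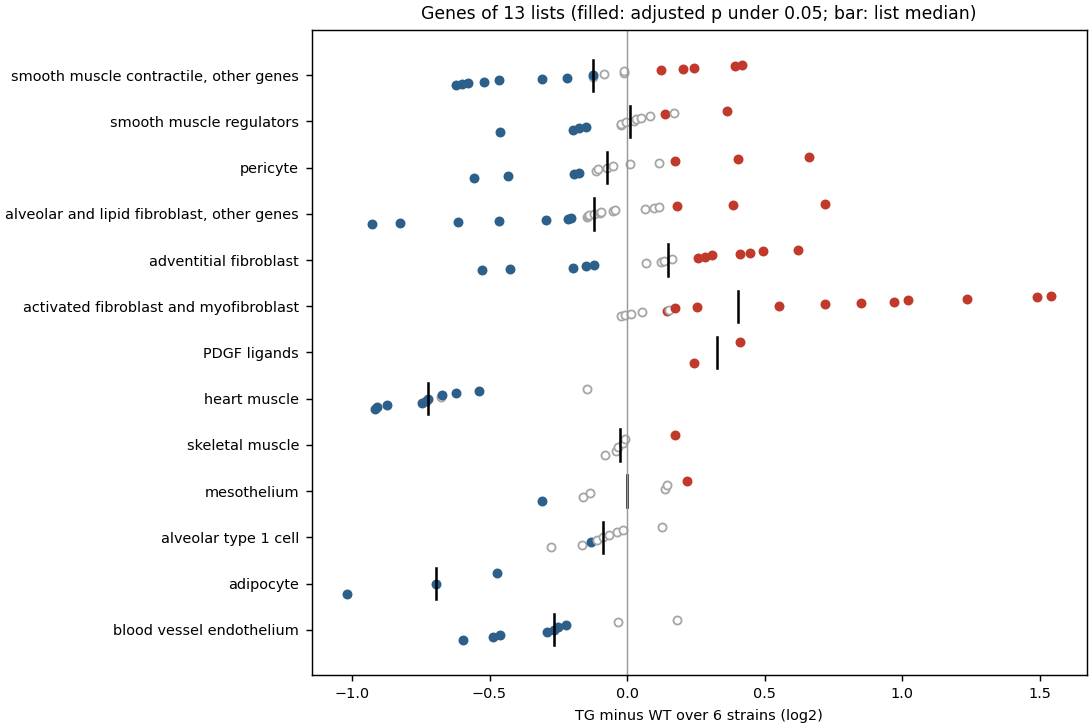
TG minus WT difference over 6 strains, in log2 units, for the genes of 13 marker lists, with a point per gene, filled where the limma adjusted p was under 0.05 (red higher, blue lower in TG), and a bar at each list's median. The myofibroblast list has its median at 0.40 and the heart muscle list at -0.72, while the other contractile and pericyte lists have theirs at -0.12 and -0.07.

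Across the 24 mice, the genes most like each of the 9 were found by Pearson correlation of log2 levels, as a description, since mice share strain and genotype. Kcnmb1, a potassium channel subunit of smooth muscle, was most like Acta2 (r = 0.83). Sphkap (r = 0.86) led for Myh11, with Synpo2 next but 1 (0.80). Apod (0.84) and Kcnma1 (0.83), the pore of the same channel, led for Des. Dock4 (0.88), Cdo1 (0.87) and Fgfr4 (0.86) led for Tcf21, of which Cdo1 and Fgfr4 are on the alveolar fibroblast list. Sulf1 (0.89) led for Pdgfrb, Otud1 (0.88) for Pdgfra, Pcdh7 (0.83) for Myocd, Tmod1 (0.83) for Npnt and Mir666 (0.78) for Lmod1.

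Once each group's mean was taken away, the deviations of single mice could be compared within the 19 mice of groups with more than 1 mouse. These 19 deviations are not independent, since they hold 12 degrees of freedom. In each C57BL/6J group the 2 deviations are equal and opposite. Acta2 and Des varied together (r = 0.88, rho = 0.86), as did Myh11 with Des (r = 0.82, rho = 0.80), Acta2 with Myocd (r = 0.80, rho = 0.74) and Acta2 with Myh11 (r = 0.76, rho = 0.81). Without the 2 mice farthest from the median, these were 0.83, 0.83, 0.71 and 0.72. Myocd thus followed Acta2 from mouse to mouse within groups. Its TG minus WT difference over strains was not called by limma, with a 95% interval of -0.20 to 0.20. That difference averages strain differences from -0.38 to 0.60. Lmod1 correlated with the other contractile genes at 0.08 to 0.35, and Tcf21 with them at -0.17 to 0.47, the highest being with Lmod1. In these deviations Myl9, a smooth muscle myosin light chain, was second to Des in likeness to Acta2 (r = 0.88), and Apod led for Myh11 (r = 0.89). For Tcf21 they were Tmem62 (0.81), Unc45b (0.79) and Sstr4 (0.77), none of them on the alveolar fibroblast list. Leading genes were Ska1 for Lmod1 (0.88), Mctp1 for Myocd (0.92), Tinf2 for Pdgfrb (0.87), Stk17b for Pdgfra (0.90) and Gsn for Npnt (0.87).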

How the data were processed

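Total RNA of 24 right lung lobes was labelled with the Ambion WT Expression kit and hybridised to Affymetrix whole-transcript arrays, per the labels' protocols. The authors deposited 1 table of values on a log2 scale. The scale was read from the values, which run from 3.41 to 14.75, and no source used here gives the normalization or its software. Of 25285 probe sets, 1 was incomplete and left out, 14539 had a single gene symbol, and the probe set with the highest mean was kept for each of 13499 genes. Entrez numbers of 14480 matched RefSeq and no symbol changed.

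Differences were fitted with limma 3.58.1 in R 4.3.3 on these values, with no further scaling. The fit over strains used strain and genotype (17 residual degrees of freedom). All other contrasts used 12 group means (12 degrees of freedom), so that strains with 1 WT mouse borrow their spread from the other groups. P-values were two-sided and Benjamini-Hochberg adjusted over all genes, with a threshold of 0.05. The fit was tested on simulated data. The design did not state a test.

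The 9 genes, the 13 marker lists (140 measured genes) and the tests were chosen with earlier results of these data known. Of each list the text names up to 4 called genes of largest change, with counts of the rest (Srf, Itga8 and the contractile genes that rose were added after their values were seen), and for each of the 9 genes those most correlated with it. Motifs were searched in RefSeq windows. Alternatives were array median centring, quantile normalization, array weights, trended moderation, a filter on dim genes, all probe sets, blocks by number or strain, and leaving out each mouse. Deviations of same-numbered C57BL/6J mice from their group means correlated at 0.06 across genes. With so few mice in each group, that value cannot decide whether the numbers paired the mice.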

Additional observations from a re-analysis of the deposited data

How the results depend on the processing

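Myh11, Des and Tcf21 kept their call and direction over the 6 strains in all 34 alternatives (-0.60 to -0.48, -0.42 to -0.35 and -0.74 to -0.62), and Acta2 and Lmod1 did not. The count of 5 called genes became 3 with mice of 1 strain and number as a replicate block, 3 with all probe sets tested, and 3 to 5 when 1 mouse was left out (3 without the A/J or the C3H WT mouse). The block in C57BL/6J alone gave 5 called genes, against 4 without it, and 2228 against 1756 of all genes. Calls within strains numbered 9 and ran from 5 (without C57BL/6J WT mouse 2) to 11. The effect difference between sets went from 0 to 1 without the AKR/J WT mouse (Npnt, -0.40, adjusted p = 0.038). The same mouse reversed Npnt in prone strains, 0.02 with it and -0.23 without it, in a range of -0.23 to 0.16 over mice left out. TG levels between sets gave 3 calls, and 1 to 4 with a mouse left out (1 without C57BL/6J TG mouse 1 or 129 TG mouse 2). Strain dependence of the effect went from 0 to 2 calls with array weights, 1 with trended moderation and 0 to 1 with a mouse left out. The contractile minus fibroblast gap was -0.31 with medians. The cause of these changes was not tested. Of 3753 gene results under alternatives, 3593 stayed called or uncalled as in the main fit, 124 lost the call, 35 gained it and 1 reversed. Most of the 3593 were uncalled results that stayed uncalled, and the 124 losses fall on the smaller set of called ones. Centring and quantile scaling moved the median of all genes by at most 0.0035. With 1 WT mouse in 5 strains, differences within a strain rest on that mouse.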
